A study of Mus musculus with 5 samples.

Results

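*Rrp8* and 7 genes that act with it on ribosomal RNA (rRNA) genes were followed in podocyte translating ribosome affinity purification (TRAP) libraries of mice. The members are *Rrp8*, *Sirt1*, *Suv39h1*, *Baz2a*, *Ttf1*, *Dnmt1*, *Sirt7* and *Ubtf*, taken by gene symbol, and they make up 8 of the 21019 genes with values in the deposited table. All 8 passed the filter on low values, which asked for 1 FPKM or more (fragments per kilobase of exon, scaled to the reads of the library) in 2 or more of the 5 libraries. *Rrp8* is a gene that the study picked out from these same libraries, so its difference here is not independent evidence.

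The mutant mice (*Pfn1*-KO, 3 libraries) were homozygous for a floxed *Pfn1* allele (*Pfn1* fl/fl) and carried *Rosa-DTR* fl, *Pod-Cre* and a Cre-dependent GFP-L10a ribosomal protein. Their controls carried *Pfn1* +/+ with the same *Rosa-DTR* fl, *Pod-Cre* and GFP-L10a alleles (2 libraries). All mice were 3 weeks old, and per the methods each library held podocyte RNA pooled from 3 mice. Cre was driven by a podocyte-specific promoter. By this design, deletion of the floxed exon 1 of *Pfn1* and the ribosome tag were both limited to podocytes, with the rest of the kidney keeping *Pfn1*. The sample labels speak of glomerular podocytes and of a column kit for RNA, whereas the methods describe a pulldown of tagged ribosomes from kidney cortex. The libraries are called here by the numbers of their columns, N2, N3 and N4 for *Pfn1*-KO and N1 and N3 for control, and these numbers are not the replicate numbers of the labels.

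Mammalian cells hold many copies of the rRNA gene and keep a part of them silent. The energy-dependent nucleolar silencing complex eNoSC does this when glucose is short, through Rrp8 (also called nucleomethylin), which binds histone H3 methylated at lysine 9, the NAD-dependent deacetylase Sirt1 and the histone methyltransferase Suv39h1. The nucleolar remodelling complex NoRC holds Baz2a (Tip5) and the ATPase Smarca5 (Snf2h). It is brought to the rRNA gene promoter by Ttf1, which binds terminator elements, and its silencing goes with DNA methylation, which Dnmt1 maintains. The remaining members, Ubtf and Sirt7, are also known as factors of active rRNA genes. Ubtf builds the open chromatin of transcribed copies and Sirt7 associates with RNA polymerase I. The name of rRNA gene silencers does not cover these roles.

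The libraries differed as whole libraries before any single gene was compared. Library sizes, estimated from the FPKM values, were 18186900 to 24871893 reads in the *Pfn1*-KO group and 22822635 to 23704366 reads in the control group. In a gene of 2 kilobases 1 read was worth 0.0201 to 0.0275 FPKM. Values above 0 were listed for 20435 to 20980 genes in *Pfn1*-KO libraries and for 6901 and 7528 genes in control libraries. The rRNA gene CT010467.1 (GRCm38 chr17:39846353-39848827, minus strand) stood at 346, 133787 and 194 FPKM in *Pfn1*-KO N2, N3 and N4, against 291221 and 311036 FPKM in the controls. Reads not counted in any other gene made up 53.9% and 57.6% of the reads in controls N1 and N3. In *Pfn1*-KO N2, N3 and N4 they made up 0.39%, 24.9% and 0.31%. Similar library sizes thus did not leave similar depth for the other genes. *Pfn1*, the targeted gene, had 41.9, 17.2 and 27.8 FPKM in *Pfn1*-KO libraries, against 13.6 and 11.8 FPKM in controls (log2 fold change 1.046, SE 0.56, limma adjusted p = 0.123). As deposited it was thus not lower where the labels say *Pfn1*-KO. Its log2 fold change was -0.70 (adjusted p = 0.213) with median-ratio size factors, 0.02 (adjusted p = 0.978) relative to nuclear protein-coding genes and 1.36 (adjusted p = 0.046) without *Pfn1*-KO N3. The value counts reads over the whole gene, including exons outside the floxed one and any cells without Cre, and directions below hold for the libraries labelled *Pfn1*-KO. Of 10 podocyte markers, 7 were called higher and 0 lower, beside 70.1% higher and 2.13% lower of all genes tested, and their summed level was 137 to 590 FPKM in *Pfn1*-KO libraries, against 63.3 and 116.9 FPKM in controls. *Ptpro* was at 0 in control N3 and *Wt1* in control N1. All 10 proximal tubule markers (2009 to 4617 FPKM summed, against 365 and 146 FPKM) and all 5 markers of the thick limb and distal tubule (335 to 556 FPKM, against 7.85 and 7.17 FPKM) were called higher too. So were 4 of 6 endothelial, 4 of 5 mesangial or muscle, 2 of 5 collecting duct, 2 of 4 erythroid and 1 of 5 immune markers. The immune sum was 510 FPKM in control N1, with *Lyz2* at 458 FPKM, and 3.56 FPKM in control N3. It was 5.87 to 73.4 FPKM in *Pfn1*-KO libraries, so both controls lay outside that range, on opposite sides. Collecting duct sums overlapped, with 47.7 to 94.5 FPKM in *Pfn1*-KO libraries, against 84.4 and 37.8 FPKM in controls. Erythroid sums overlapped as well. The proximal tubule sum exceeded the podocyte sum in every library, so a level in these libraries is not known to be that of podocytes alone. The part of these differences in the results on the members was not tested, and in bulk libraries fewer cells of a type and less RNA per cell cannot be told apart. Library and group cannot be told apart either, since nothing in the labels gives a batch.

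All members are protein-coding genes, and their coding sequences differ in how purine-rich they are, a property that the choice of members did not use. The measure is the highest share of A and G in any window of 50 bases of the longest coding sequence (GENCODE vM21, GRCm38), and its median over 11843 protein-coding genes tested was 74%. Longer coding sequences hold more windows, and the part of length in this measure was not tested. Coding length was 5670 bases in *Baz2a*, 4860 in *Dnmt1*, 2577 in *Ttf1*, 2292 in *Ubtf* and 1509 in *Rrp8*. It was 2211 bases in *Sirt1*, 1239 in *Suv39h1* and 1206 in *Sirt7*. *Baz2a*, *Ubtf* and *Dnmt1* reached 92%, more than 97.2% of coding genes. *Ttf1* reached 84% and *Rrp8* 82%, above 87.6% and 82.3% of coding genes. *Sirt1* (76%), *Sirt7* (74%) and *Suv39h1* (72%) lay near the median. These windows are shown 5′ to 3′ with purines in capitals because they are set beside the levels of the members in the control libraries below. They run from base 395 to 444 of the coding sequence in *Rrp8*, 2283 to 2332 in *Baz2a*, 2047 to 2096 in *Ubtf*, 3328 to 3377 in *Dnmt1*, 336 to 385 in *Sirt1* and 814 to 863 in *Suv39h1*.
Rrp8: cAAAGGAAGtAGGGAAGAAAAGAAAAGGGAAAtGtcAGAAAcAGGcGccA
Baz2a: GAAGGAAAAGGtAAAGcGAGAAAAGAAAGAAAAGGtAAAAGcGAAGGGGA
Ubtf: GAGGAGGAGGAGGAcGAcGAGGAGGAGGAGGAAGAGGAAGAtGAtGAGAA
Dnmt1: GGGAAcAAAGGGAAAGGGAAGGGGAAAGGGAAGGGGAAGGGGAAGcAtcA
Sirt1: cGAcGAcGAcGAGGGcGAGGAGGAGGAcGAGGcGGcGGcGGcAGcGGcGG
Suv39h1: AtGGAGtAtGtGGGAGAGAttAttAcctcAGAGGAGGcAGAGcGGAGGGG
*Baz2a* and *Dnmt1* hold runs of A and G broken by few other bases, and the window of *Ubtf* repeats the triplet GAG. The window of *Sirt1* is regularly broken by C.

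The comparison of libraries labelled *Pfn1*-KO with controls asked which ribosome-bound transcripts differ once *Pfn1* is deleted in podocytes. It was fitted with limma on log2(FPKM + 1) over 14631 genes, and a gene was called at a Benjamini-Hochberg adjusted p under 0.05. *Rrp8* was called lower, *Sirt1*, *Dnmt1* and *Sirt7* were called higher, and *Suv39h1*, *Baz2a*, *Ttf1* and *Ubtf* were not called. Over all genes tested, 70.1% were called higher and 2.13% lower, so as deposited 3 of 8 members called higher is a smaller share than in the background. The filter could be passed through the *Pfn1*-KO libraries alone. *Sirt1* did so, as did all genes at 0 in both controls (41.0% of those tested). *Sirt7* and *Suv39h1* had 1 FPKM or more in only 1 control. The calls of such genes and the background share thus both depend on the filter. Among genes above 0 in every library, 1 of 6 members was called higher, beside 2440 of 4764 genes. The single lower call as deposited was *Rrp8*, the gene that the study picked out from these same libraries, so its direction is not independent evidence. The paper also reported less *Rrp8* in other samples, by real-time PCR in primary podocytes and by immunofluorescence of its protein. The median log2 fold change of the members was 0.30, against 1.75 over all genes tested. For 3 members (80.1% of all genes) every *Pfn1*-KO library exceeded both controls, and every one was below both for *Rrp8* and *Baz2a* (3.49% of all genes), while the groups overlapped for the other 3.

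The calls over all genes moved with the scaling and with single libraries. With median-ratio size factors 46.8% of genes were called higher and 6.18% lower, and with quantile normalization 6.99% higher and 12.3% lower. The median log2 fold change of all genes was 1.75 as deposited, 1.29 after rescaling to nuclear protein-coding genes, 0.98 with median-ratio factors, -0.09 with quantile normalization and 2.93 after rescaling each library to a sum of 1000000. Relative to the median as deposited, *Rrp8* stood at -3.68, *Baz2a* at -2.88, *Ubtf* at -2.37, *Ttf1* at -1.78, *Suv39h1* at -1.12, *Sirt7* at -0.03 and *Dnmt1* at 0.14 on the log2 scale. The number of genes called higher was 10251, and 6446 without *Pfn1*-KO N2. The number called lower was 312, and 475 without control N1, 136 without *Pfn1*-KO N2 and 155 without *Pfn1*-KO N4.

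**Figure D1:**
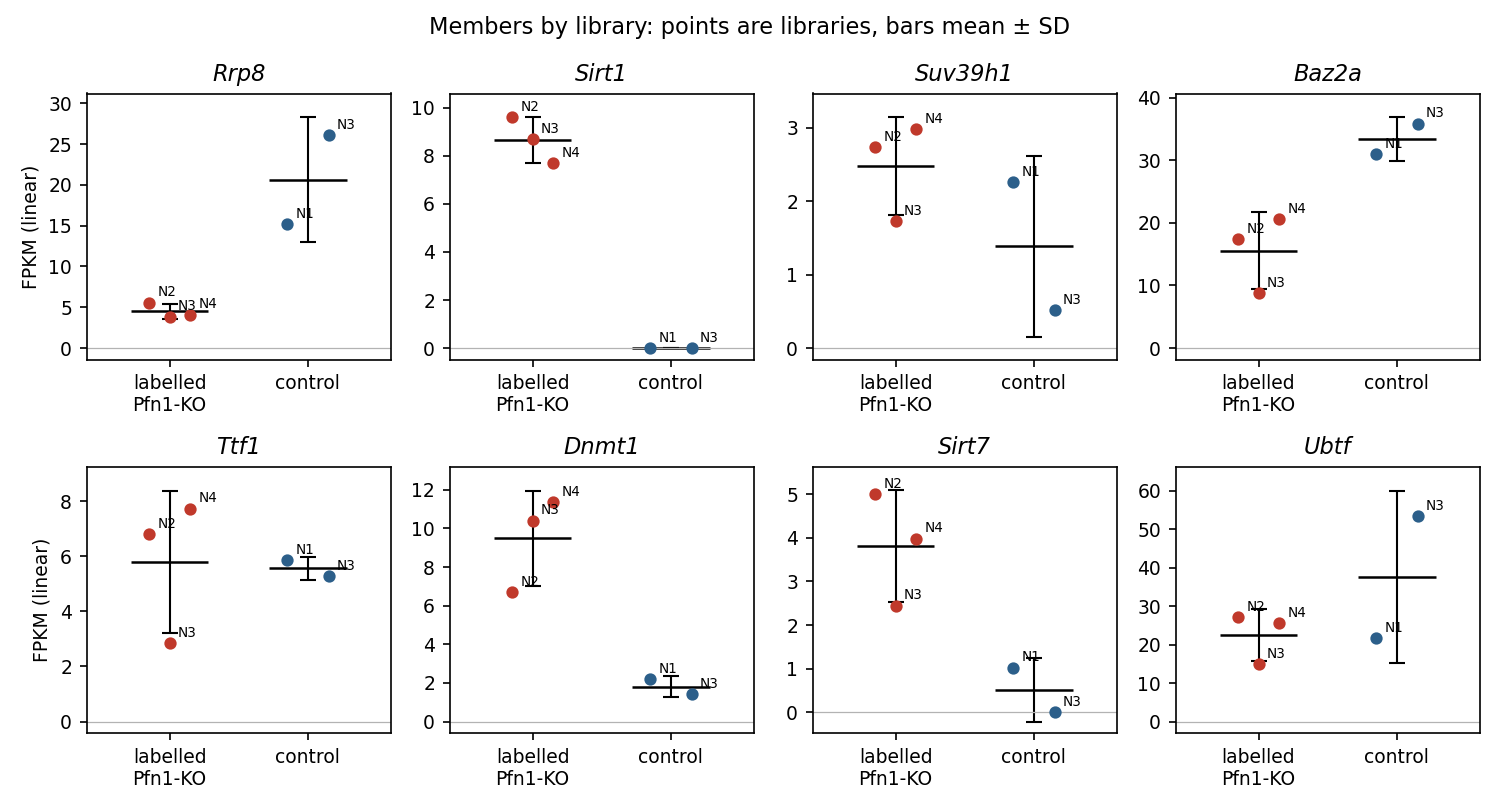
Level of each of the 8 members in FPKM on a linear axis, with 3 libraries labelled *Pfn1*-KO on the left and 2 control libraries on the right of each panel, 1 point for each library, and the mean and SD as bars. *Rrp8* and *Baz2a* lie lower in every library labelled *Pfn1*-KO than in either control, *Sirt1*, *Dnmt1* and *Sirt7* lie higher, and the groups of *Suv39h1*, *Ttf1* and *Ubtf* overlap.

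The 3 genes of eNoSC gave 3 different calls. *Rrp8* (ENSMUSG00000030888.14), the H3K9me-binding subunit with a methyltransferase fold, lies on the minus strand at GRCm38 chr7:105731730-105737385. It had 5.57, 3.85 and 4.11 FPKM in libraries labelled *Pfn1*-KO (458, 341 and 266 reads), against 15.2 and 26.05 FPKM in controls (1284 and 2115 reads). The *Pfn1*-KO libraries were close to each other and all below both controls, which themselves differed more from each other than the *Pfn1*-KO libraries did. The mean was 4.51 ± 0.93 FPKM in libraries labelled *Pfn1*-KO (SD, n = 3) and 20.6 ± 7.65 FPKM in controls (SD, n = 2), 4.57 times as high in controls. The log2 fold change was -1.94 (SE 0.46, limma adjusted p = 0.0099), the rank 216 from the lowest of 14631 genes, with 1.47% of genes lower. The call was lost without *Pfn1*-KO N4 (-1.89, adjusted p = 0.057) and after rescaling each library to a sum of 1000000 (-1.35, adjusted p = 0.217). *Rrp8* was negative under all 15 alternatives, at -2.91 (adjusted p = 0.0038) relative to nuclear protein-coding genes and at -3.56 with median-ratio factors.

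*Rrp8* shares 355 of its 3558 exon bases (9.98%) with *Ilk*, the integrin-linked kinase gene on the opposite strand, and strand use in the counting is not given in the sources used here. *Ilk* had 0.205, 0.352 and 0.220 FPKM in libraries labelled *Pfn1*-KO and 0 in both controls. Since 89.7% of the *Ilk* exon bases are shared with *Rrp8* or *Taf10*, these *Ilk* values are uncertain. The next protein-coding genes on either side are *Taf10* and *Dnhd1*. *Taf10*, a TFIID and SAGA subunit, had 6.65, 2.47 and 5.54 FPKM, against 2.13 and 0 FPKM in controls (log2 fold change 1.66, SE 0.61, limma adjusted p = 0.045). The *Taf10* call held without control N1 but was lost without any other single library (adjusted p of 0.066 to 0.211), and its log2 fold change was -0.36 with quantile normalization. *Dnhd1*, a dynein heavy chain domain gene, stood at 0.088 to 0.563 FPKM and at 0 in both controls.

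*Sirt1* (ENSMUSG00000020063.16, minus strand, chr10:63319005-63381704), the deacetylase of eNoSC, had 9.60, 8.68 and 7.69 FPKM in libraries labelled *Pfn1*-KO (1182, 1151 and 746 reads) and was listed at 0 in both controls. It was called higher (limma adjusted p = 0.0015), and no fold is given against a group at 0. Of all genes tested 41.0% were listed at 0 in both controls, and of protein-coding genes 32.2%, so this pattern was common in the table. With quantile normalization the adjusted p of *Sirt1* was 0.053.

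*Suv39h1* (ENSMUSG00000039231.18, minus strand, chrX:8061171-8074760), which trimethylates H3K9, had the lowest level of the eNoSC genes in libraries labelled *Pfn1*-KO. It had 2.73, 1.72 and 2.97 FPKM there (333, 226 and 285 reads), against 2.26 and 0.515 FPKM in controls (282 and 62 reads). Control N1 lay inside the range of the *Pfn1*-KO libraries and control N3 below it. Its log2 fold change was 0.63 (SE 0.44, limma adjusted p = 0.227), but -0.49 (adjusted p = 0.386) with median-ratio factors, -0.06 (adjusted p = 0.928) relative to nuclear protein-coding genes and -1.40 (adjusted p = 0.039) with quantile normalization. It was 1.18 without control N1 and 0.08 without control N3. *Suv39h1* shares 767 of 5270 exon bases (14.6%) with the antisense gene *Gm14820*, and reads of both cannot be told apart there without strand.

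Of the genes of the NoRC pathway, *Baz2a* and *Ttf1* were not called and *Dnmt1* was called higher. *Baz2a* (ENSMUSG00000040054.17, plus strand, chr10:128091577-128129303), the large subunit that binds Ttf1 and RNA, had 17.4, 8.72 and 20.6 FPKM in libraries labelled *Pfn1*-KO (4306, 2327 and 4013 reads), against 30.9 and 35.8 FPKM in controls (7872 and 8779 reads). All *Pfn1*-KO libraries were below both controls, with N3 the lowest. The log2 fold change of -1.13 (SE 0.55, limma adjusted p = 0.10) did not pass as deposited. It passed with median-ratio factors (-2.88, adjusted p = 0.0060), quantile normalization (-2.42, adjusted p = 0.018) and rescaling to nuclear protein-coding genes (-2.17, adjusted p = 0.013).

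*Ttf1* (ENSMUSG00000026803.17, plus strand, chr2:29060262-29087656) had 6.80, 2.86 and 7.72 FPKM in libraries labelled *Pfn1*-KO (946, 428 and 846 reads), against 5.86 and 5.27 FPKM in controls (837 and 724 reads). *Pfn1*-KO N3 was the lowest library and the other two lay above both controls, so the groups overlapped. Its log2 fold change was -0.03 (SE 0.49, limma adjusted p = 0.950), and -1.60 (adjusted p = 0.020) with median-ratio factors and -2.07 (adjusted p = 0.018) with quantile normalization. After rescaling to a sum of 1000000 it was 0.66 (adjusted p = 0.543).

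*Dnmt1* (ENSMUSG00000004099.16, minus strand, chr9:20907209-20959888), the maintenance DNA methyltransferase, had 6.71, 10.4 and 11.4 FPKM in libraries labelled *Pfn1*-KO (1144, 1910 and 1525 reads), against 2.20 and 1.43 FPKM in controls (385 and 241 reads). The groups did not overlap. The mean was 9.50 ± 2.46 FPKM (SD, n = 3) and 1.82 ± 0.54 FPKM in controls (SD, n = 2), a ratio of 5.23. The log2 fold change was 1.88 (SE 0.42, limma adjusted p = 0.0085), close to the median of all genes, and it was 0.46 (adjusted p = 0.421) with median-ratio factors, 1.050 (adjusted p = 0.090) relative to nuclear protein-coding genes and -0.32 (adjusted p = 0.653) with quantile normalization.

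Of the factors of active rRNA genes, *Sirt7* was called higher and *Ubtf* was not called, and the difference between the genes was not tested. *Sirt7* (ENSMUSG00000025138.14, minus strand, chr11:120618372-120625240) had 4.99, 2.44 and 3.98 FPKM in libraries labelled *Pfn1*-KO (594, 313 and 373 reads), against 1.02 and 0 FPKM in controls (125 and 0 reads). Every *Pfn1*-KO library was above both controls, and control N3 was listed at 0. The log2 fold change was 1.72 (SE 0.45, limma adjusted p = 0.015), equal to the median of all genes within 0.03, and -0.29 (adjusted p = 0.639) with quantile normalization. The call was lost without control N3 (1.21, adjusted p = 0.073), without *Pfn1*-KO N2 (1.54, adjusted p = 0.067) and without *Pfn1*-KO N4 (1.68, adjusted p = 0.060), and also with median-ratio factors (0.86, adjusted p = 0.197), relative to nuclear protein-coding genes (1.17, adjusted p = 0.085) and with limma-voom on recovered reads (adjusted p = 0.187). Of its exon bases 3.46% are shared with *Mafg* and *Mir6936*.

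*Ubtf* (ENSMUSG00000020923.17, minus strand, chr11:102304560-102319742), the upstream binding factor of RNA polymerase I, had 27.2, 14.9 and 25.6 FPKM in libraries labelled *Pfn1*-KO (4114, 2428 and 3055 reads), against 21.8 and 53.5 FPKM in controls (3386 and 8002 reads). Control N3 was the highest library and control N1 lay among the *Pfn1*-KO libraries. Its log2 fold change was -0.63 (SE 0.61, limma adjusted p = 0.374), and it passed as lower with median-ratio factors (-2.40, adjusted p = 0.022), quantile normalization (-1.79, adjusted p = 0.047) and rescaling to nuclear protein-coding genes (-1.67, adjusted p = 0.040). It was 0.10 (adjusted p = 0.936) after rescaling to a sum of 1000000, -1.25 without control N1 and 0.0032 without control N3.

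**Figure D2:**
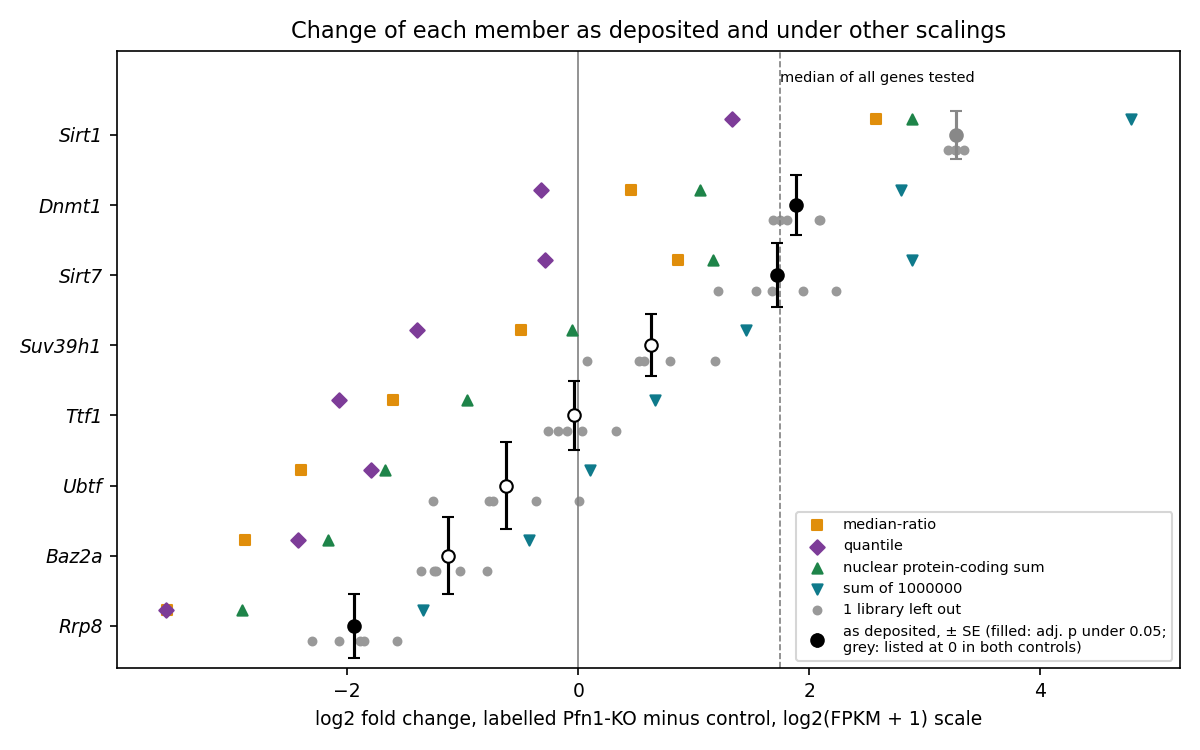
Log2 fold change of each member, libraries labelled *Pfn1*-KO minus control, on the log2(FPKM + 1) scale, with SE bars for the values as deposited (filled where adjusted p was under 0.05, grey for *Sirt1*, which is listed at 0 in both controls), coloured symbols for 4 other scalings and small grey points for fits without 1 library. *Rrp8* is at -1.94 as deposited and below 0 in every setting drawn, while *Dnmt1* and *Sirt7* cross 0 with quantile normalization; the dashed line is the median of all genes, 1.75.

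The number of members called thus changed with the scaling of the libraries. With median-ratio factors 1 member was called higher and 4 lower (all genes, 46.8% and 6.18%), and with quantile normalization 0 higher and 5 lower (6.99% and 12.3%). Relative to nuclear protein-coding genes there were 1 higher and 3 lower (54.6% and 4.24%), and after rescaling to a sum of 1000000 there were 3 higher and 0 lower (75.4% and 0.67%). Without *Pfn1*-KO N4, 2 members were called higher and 0 lower, while all genes called went from 10251 higher and 312 lower to 6938 and 155. *Pfn1*-KO N3, the library of that group with the most rRNA, changed neither member count when it was left out (3 higher and 1 lower, beside 10698 and 245 of all genes).

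The order of the levels within each library, in FPKM and so per exon length, does not depend on scaling. *Ubtf* was the highest member in all 3 libraries labelled *Pfn1*-KO, and *Baz2a* and *Ubtf* took the first 2 places in both controls. *Rrp8* was the third highest in both controls and the fifth or sixth in libraries labelled *Pfn1*-KO. It lay above 65.0%, 67.4% and 59.2% of the genes in the table in *Pfn1*-KO N2, N3 and N4, and above 96.2% and 97.5% in controls N1 and N3, where most genes were at 0. *Sirt7* and *Suv39h1* took the last 2 places in every library labelled *Pfn1*-KO, in that order, while *Dnmt1* ranged from the second to the fifth place, *Sirt1* from the third to the fifth and *Ttf1* from the fourth to the sixth, so these 3 have no fixed order there. *Rrp8* lay below *Sirt1* and *Dnmt1* in all 3 of these libraries, and above *Ttf1* only in N3. In the controls *Ttf1* took the fourth place in both, and *Suv39h1* and *Dnmt1* exchanged the fifth and sixth places.

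Ratios of 2 genes within a library do not depend on how libraries are scaled, apart from the added 1 FPKM, and were compared for 8 pairs by an exact permutation test over 5 libraries (two-sided, 10 arrangements, smallest possible p = 0.1). The design could thus not reach 0.05 for any pair. The log2 ratio of *Rrp8* over *Suv39h1*, its eNoSC partner, was 0.82, 0.83 and 0.36 in libraries labelled *Pfn1*-KO, against 2.32 and 4.16 in controls, a difference of -2.57 without overlap (exact permutation p = 0.1, adjusted over the 8 pairs 0.16). This difference was -3.49 without control N1, -1.65 without control N3 and -1.64 with a pseudocount of 5. *Rrp8* exceeded *Suv39h1* in every library and did so less in every library labelled *Pfn1*-KO.

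*Rrp8* over *Sirt7* gave 0.13, 0.49 and 0.04, against 3.00 and 4.76 in controls, a difference of -3.66 without overlap (exact permutation p = 0.1, adjusted 0.16). *Sirt7* was at 0 in control N3, and this difference was -5.62 with a pseudocount of 0.1 and -2.07 with a pseudocount of 5. *Rrp8* over *Sirt1* was -0.69, -0.996 and -0.77, so *Rrp8* was the lower gene of the pair in libraries labelled *Pfn1*-KO, against 4.02 and 4.76 in controls, where *Sirt1* was at 0 and the ratio rests on the pseudocount. *Baz2a* over *Ttf1* was 1.24, 1.33 and 1.31 in libraries labelled *Pfn1*-KO, against 2.22 and 2.56 in controls, a difference of -1.096 (exact permutation p = 0.1, adjusted 0.16). The spread of this ratio was small in the *Pfn1*-KO group (SD 0.05, n = 3), although both genes were lowest in N3.

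The groups overlapped for 3 of the other pairs. *Baz2a* over its ATPase partner *Smarca5* was 0.12, -1.47 and 0.02, against -0.09 and -0.14 in controls, with overlap (exact permutation p = 1.0). *Pfn1*-KO N3 stood apart, and the difference of -0.33 was 0.19 without it. *Smarca5* itself had 16.0, 25.9 and 20.2 FPKM, against 33.1 and 39.6 FPKM in controls (log2 fold change -0.80, limma adjusted p = 0.180). *Dnmt1* over *Uhrf1*, which brings Dnmt1 to replicated DNA, differed by -0.27 (exact permutation p = 0.3, adjusted 0.40), and this difference was -2.76 with a pseudocount of 0.1, since *Uhrf1* had 1 read in control N1 and 0 in control N3. *Ubtf* over *Ttf1* differed by -0.59 (exact permutation p = 0.4), by -1.29 without control N1 and by 0.10 without control N3. *Sirt7* over *Sirt1* did not overlap, with -0.82, -1.49 and -0.80, against 1.02 and 0 in controls, a difference of -1.55 (exact permutation p = 0.1, adjusted 0.16). A ratio of 0 there stands for both genes at 0, and the difference was -2.96 with a pseudocount of 0.1 and -0.78 with a pseudocount of 5.

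**Figure D3:**
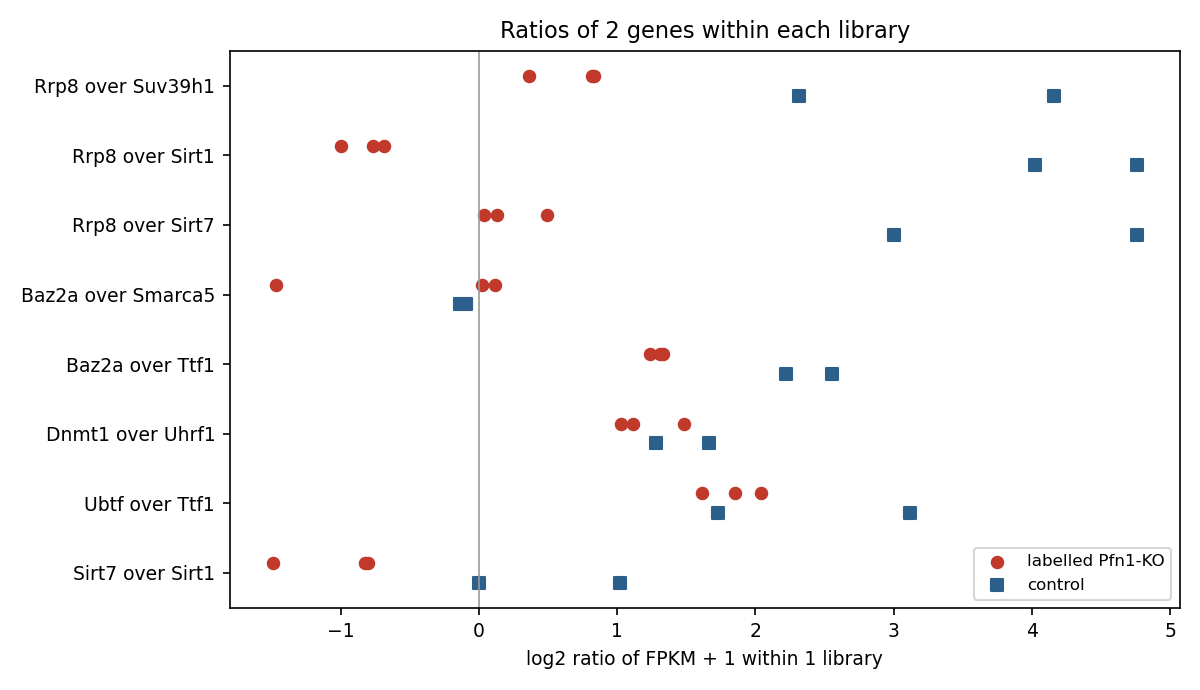
Log2 ratio of FPKM + 1 of 2 genes within 1 library for 8 pairs, with red circles for the 3 libraries labelled *Pfn1*-KO and blue squares for the 2 controls. The 3 ratios with *Rrp8* on top, *Baz2a* over *Ttf1* and *Sirt7* over *Sirt1* are separated between the groups, *Rrp8* over *Suv39h1* by 2.57 on average. *Baz2a* over *Smarca5*, *Dnmt1* over *Uhrf1* and *Ubtf* over *Ttf1* overlap. *Sirt1* is at 0 in both controls and *Sirt7* in control N3, so ratios with them there rest on the added 1 FPKM.

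Of a list of 20 other silencers of rRNA genes, 19 were tested, and 11 were called higher, 1 lower and 7 not called (background 70.1% higher and 2.13% lower), with a median log2 fold change of 1.78, against 1.75 over all genes. Of those called higher, the largest was *Mbd2*, which binds methylated DNA, with 57.1, 31.2 and 61.9 FPKM, against 8.36 and 4.39 FPKM in controls (log2 fold change 2.79, SE 0.57, limma adjusted p = 0.0061). The RNA helicase *Dhx9*, the demethylase *Kdm2a* and the H3K9me reader *Cbx5* (HP1α) followed at 2.58, 2.48 and 2.47. With median-ratio factors none of these 4 passed, and *Cbx5* was lost without control N1 (adjusted p = 0.057). Without *Pfn1*-KO N2 or N4 neither *Kdm2a* (adjusted p = 0.066 and 0.058) nor *Cbx5* (adjusted p = 0.106 and 0.096) passed.

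The only silencer of that list called lower was *Hdac1*, a histone deacetylase, with 12.1, 22.6 and 11.03 FPKM, against 40.8 and 140 FPKM in controls (log2 fold change -2.31, SE 0.70, limma adjusted p = 0.025). *Chd4*, the ATPase of the NuRD complex that also holds Hdac1 and the most abundant gene of the list, had 78.4, 74.2 and 91.4 FPKM, against 153 and 561 FPKM in controls (-1.84, limma adjusted p = 0.058). The controls were far apart in both genes, N3 being the higher. The *Hdac1* call was lost without control N3 (-1.43, adjusted p = 0.065), without *Pfn1*-KO N2 (-2.19, adjusted p = 0.115) and without *Pfn1*-KO N4 (-2.13, adjusted p = 0.111), and 3 of the list were called lower without control N1. Leaving out *Pfn1*-KO N2 or N4 left 6 of the list called higher, while all genes called higher fell from 10251 to 6446 and 6938.

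Activators of rRNA gene transcription, also 20 with 19 tested, gave 10 called higher, 3 lower and 6 not called (background 70.1% higher and 2.13% lower), with a median of 2.21, against 1.75 over all genes. Of the 19 tested, 7 were listed at 0 in both controls, beside 41.0% of all genes tested and 32.2% of protein-coding genes tested. With the untested *Taf1c*, 8 of the 20 were at 0 in both controls. These were the RNA polymerase I subunits *Polr1b*, *Polr1c* and *Polr1e*, *Taf1a* and *Taf1c* of the promoter selectivity factor, *Ercc6*, the acetyltransferase *Kat2b* (32.0, 19.0 and 43.3 FPKM in libraries labelled *Pfn1*-KO) and *Myc* (5.69, 3.02 and 9.11 FPKM). *Polr1d* had 13.2, 6.87 and 9.94 FPKM, against 0 and 1.47 FPKM in controls (2.77, limma adjusted p = 0.0048).

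The activators called lower were *Top1*, *Ncl* and *Chd7*. The topoisomerase gene *Top1* had 22.6, 12.0 and 23.2 FPKM, against 110 and 96.1 FPKM in controls (-2.41, SE 0.56, limma adjusted p = 0.0093). *Ncl*, which encodes nucleolin, had 68.1, 39.5 and 85.9 FPKM, against 222 and 446 FPKM in controls (-2.34, limma adjusted p = 0.020), and the remodeller *Chd7* stood at -2.32 (limma adjusted p = 0.016). Without *Pfn1*-KO N2 only *Top1* of these was still called (1 of the list, while all genes called lower fell from 312 to 136). *Ncl* also missed the threshold without control N3 (adjusted p = 0.064) or *Pfn1*-KO N4 (adjusted p = 0.054), and *Chd7* without *Pfn1*-KO N3 (adjusted p = 0.065). *Npm1*, which encodes nucleophosmin, had 130, 95.9 and 167 FPKM, against 180 and 0.658 FPKM in controls, so the controls lay on either side of the *Pfn1*-KO libraries (limma adjusted p = 0.177).

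**Figure D4:**
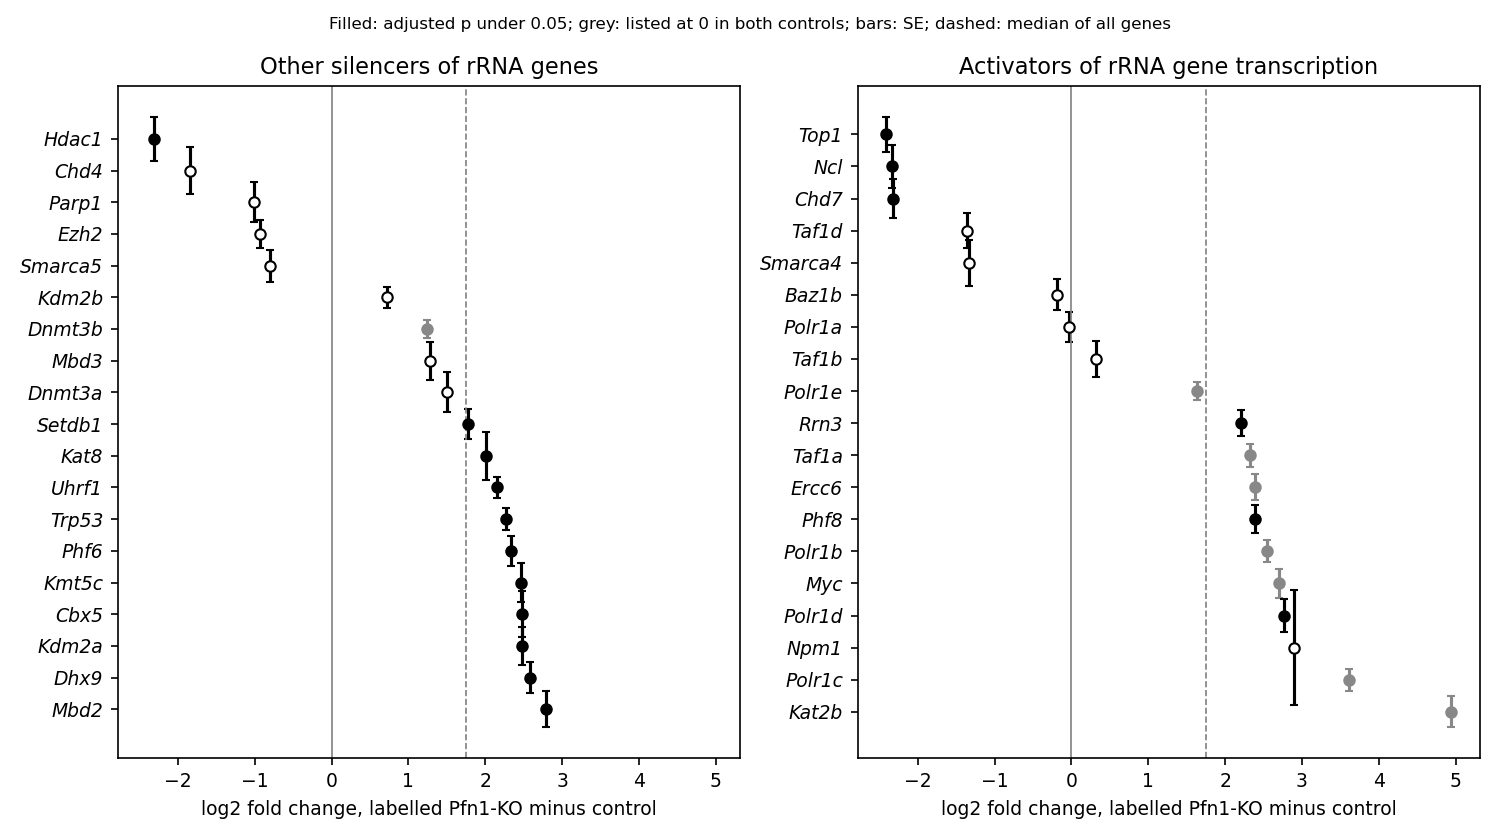
Log2 fold change with SE, libraries labelled *Pfn1*-KO minus control on the log2(FPKM + 1) scale, for the 19 tested silencers (left) and 19 tested activators (right) of rRNA genes; filled points had an adjusted p under 0.05, grey points are genes listed at 0 in both controls, and the dashed line is the median of all genes (1.75). *Hdac1* is the lowest silencer at -2.31, and *Top1*, *Ncl* and *Chd7* are the lowest activators at -2.41 to -2.32.

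All 7 sirtuins, the family of *Sirt1* and *Sirt7*, were called higher as deposited, against 70.1% of all genes, with a median of 1.72. *Sirt1*, *Sirt4* and *Sirt6* were at 0 in both controls and the other 4 in 1 control each. None of the 7 could thus pass the filter on the controls alone, and all entered the fit through the libraries labelled *Pfn1*-KO. The count of 7 higher calls partly follows from that. *Sirt2*, a mostly cytoplasmic deacetylase, had 11.5, 9.37 and 9.71 FPKM, against 0 and 0.862 FPKM in controls, and the mitochondrial *Sirt3* had 7.34, 2.84 and 5.51 FPKM, against 2.15 and 0 FPKM in controls. *Sirt3* passed without control N1 (adjusted p = 0.0042) but not without any other single library (adjusted p of 0.065 to 0.173). With quantile normalization 3 of the 7 had a fold change above 0 and 0 were called either way, and without control N3 the number called higher was 4. The summed level of the family was 28.4 to 39.8 FPKM in libraries labelled *Pfn1*-KO and 3.39 and 0.862 FPKM in controls.

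The protein-coding genes whose profile over the 5 libraries was most like that of *Rrp8* were sought among 11843 genes by the Euclidean distance between centred log2(FPKM + 1) values. They were *2810006K23Rik* (distance 0.27), *Arf5* (0.32), *Sh3bgr* (0.35), *Zfp326* (0.36) and *Mrpl18* (0.37). *Arf5*, a small GTPase of the Golgi, had 19.4, 14.8 and 11.7 FPKM, against 44.0 and 83.9 FPKM in controls. *Mrpl18*, a protein of the mitochondrial ribosome, had 29.8, 19.2 and 17.8 FPKM, against 69.8 and 91.7 FPKM in controls. None of these 5 is a member or stands in the silencer and activator lists, and their log2 fold changes of -2.16 to -1.83 follow from the choice by likeness.

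The purine-rich windows shown above were set beside the values of the members. The 5 members at 82% or more (*Rrp8*, *Ttf1*, *Baz2a*, *Ubtf* and *Dnmt1*) had 1.43 to 53.5 FPKM in the controls and no 0. Of the 3 members at 76% or less, *Sirt1* was at 0 in both controls, *Sirt7* in control N3, and *Suv39h1* had 2.26 and 0.515 FPKM. Over all protein-coding genes tested, 43.9% of those under 70% purine were at 0 in both controls, 40.9% of those from 70% to under 74%, 35.7% of those from 74% to under 78%, 25.01% of those from 78% to under 82%, 17.0% of those from 82% to under 86%, and 5.91% of those at 86% or more. The median log2 fold change in these classes, from low to high purine, was 1.88, 2.13, 2.13, 2.08, 1.68 and 0.46. *Suv39h1* (0.63) and *Sirt7* (1.72) lay below the medians of their classes. *Baz2a* and *Ubtf* lay below that of their class and *Dnmt1* at the same 92% lay above it, and *Rrp8* at -1.94 lay far below the median of genes with a like window. All genes were measured in the same libraries, and coding length was not matched between the classes. This is therefore a description with no test, and the part of purine share in the calls of the members was not tested.

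**Figure D5:**
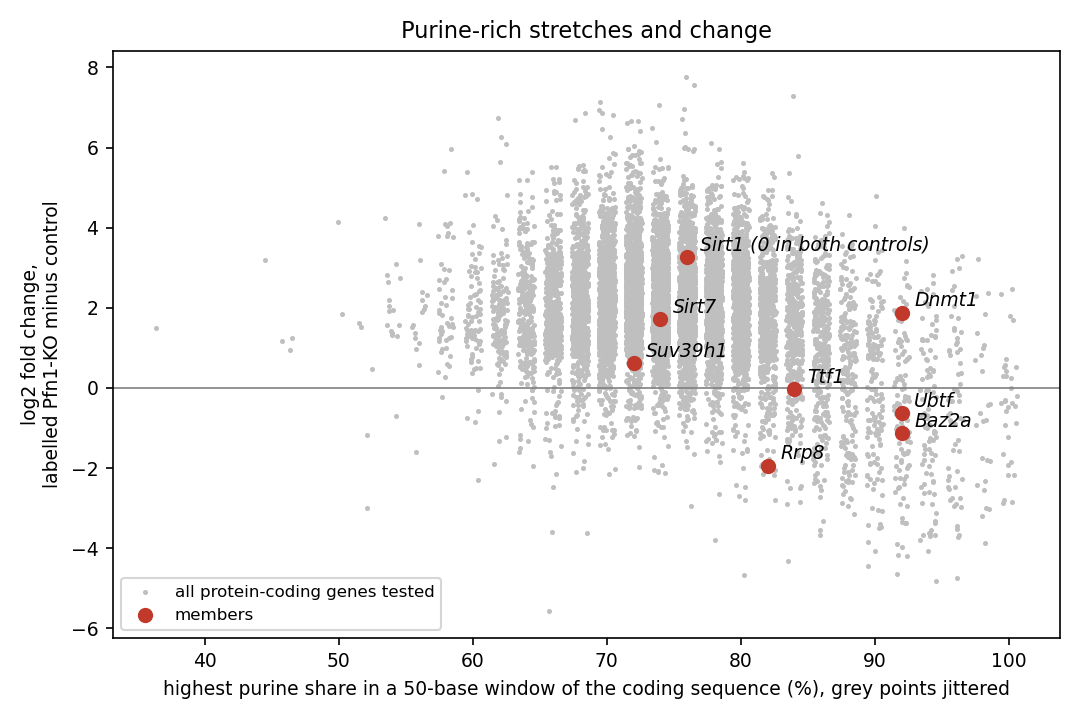
Log2 fold change (libraries labelled *Pfn1*-KO minus control, log2(FPKM + 1) scale) against the highest purine share in a 50-base window of the coding sequence, in percent, with a grey point for each protein-coding gene tested and red points for the 8 members. *Rrp8*, *Ttf1*, *Baz2a*, *Ubtf* and *Dnmt1* lie at 82% to 92%, right of the median of 74%, and *Rrp8* is the lowest of the members.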

How the data were processed

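RNA from podocyte TRAP of mice was sequenced by the authors in 5 libraries (3 labelled Pfn1 KO, 2 Control). Per the labels and methods, reads were trimmed with fastp 0.20, aligned with STAR 2.7.9 to GRCm38.p6 and counted with featureCounts 2.0.0. The deposited table holds FPKM values made by the authors, although their methods name TPM; its column sums differ between libraries, so FPKM was kept. It has 23010 gene rows, of which 1991 hold no values. The authors' own test, DESeq2 on read counts, does not take FPKM, and it was not run on the recovered read numbers described below.

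Gene names, lengths and coding sequences came from GENCODE vM21, which 20985 gene IDs matched. Library sizes were estimated from FPKM and exon length. Read numbers were then recovered from FPKM, exon length and library size. They came out whole for 20618 genes (tolerance 0.02 of a read) and are printed beside FPKM. The log2(FPKM + 1) values of the groups were compared by limma 3.58.1 (R 4.3.3; mean-variance trend, two-sided, Benjamini-Hochberg adjustment). Genes with 1 FPKM or more in 2 or more libraries entered the fit. A fold change on this scale understates the change of low genes. List medians did not change when genes at 0 in both controls were set to 3 reads in each control. The median of all genes tested went from 1.75 to 1.67, with 5990 of 14631 genes set so. A median moves only where its middle genes do, so this is a weak check of the lists. Ratios were tested by exact permutation with scipy 1.17.1 under Python 3.11.15 (pandas 2.3.3, numpy 2.4.6), and figures were drawn with matplotlib 3.10.9. The fit was also run on reads simulated around the *Pfn1*-KO means in all libraries. That setting lacks the many genes at 0 in the controls, so it cannot show how the fit behaves with them. Nothing says more of the replicates than that each library is a separate pool of 3 mice, and p-values measure the spread between pools.

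A single-gene result for 1 marker is not reported here. The members and lists were chosen with earlier results of these data known. Named are all members, up to 4 called genes each way with the largest change and up to 3 most abundant genes of each list, genes overlapping or next to a member, and the 5 genes most like *Rrp8*. Alternatives were the pseudocount (0.1, 5), the filter, array weights, 4 scalings, limma-voom on recovered reads and leaving out each library. Columns of the table carry the group but not the label's replicate number.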

Additional observations from a re-analysis of the deposited data

How the results depend on the processing

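*Rrp8* kept its negative sign under all 15 alternatives and its call under 13 of them, with -1.35 after rescaling to a sum of 1000000, and -2.31 to -1.57 over the fits without 1 library. With quantile normalization *Suv39h1* (-1.40), *Dnmt1* (-0.32) and *Sirt7* (-0.29) turned sign, and the median of all genes was -0.09. Members called higher (3) were 1 with genes above 0 in every library, 1 with median-ratio factors, 0 with quantile normalization and 1 relative to nuclear protein-coding genes. Members called lower (1) were 4, 5, 0 and 3 with median-ratio factors, quantile normalization, a sum of 1000000 and nuclear protein-coding genes, and 0 to 1 without 1 library. All genes called higher (10251) were 2440 with the filter above 0, 1023 with quantile normalization and 6446 to 10698 without 1 library. Those called lower (312) were 904 with median-ratio factors, 1806 with quantile normalization, 98 with a sum of 1000000, 620 with nuclear protein-coding genes, 207 with limma-voom on recovered reads and 136 to 475 without 1 library. Other silencers called higher (11) were 5 with the filter above 0, 4 with median-ratio factors, 0 with quantile normalization, 7 with nuclear protein-coding genes, 6 with limma-voom and 6 to 11 without 1 library. Those called lower (1) were 2 with a pseudocount of 0.1, 4 with array weights, 5 with median-ratio factors, 5 with quantile normalization, 0 with a sum of 1000000, 5 with nuclear protein-coding genes, 0 with limma-voom and 0 to 3 without 1 library. Activators called higher (10) were 1 with the filter above 0 and 2 with quantile normalization, and those called lower (3) were 6, 7, 0 and 5 with median-ratio factors, quantile normalization, a sum of 1000000 and nuclear protein-coding genes, and 1 to 4 without 1 library. Sirtuins called higher (7) were 0 with the filter above 0, which tests none of them, 0 with quantile normalization, 3 with limma-voom and 4 to 6 without 1 library. Apart from the filter above 0, which tests fewer genes, the cause of these changes was not tested. Where a control was left out, the remaining one was assumed to vary like the other libraries. No paired analysis was possible because the columns do not carry the replicate numbers of the labels and the column numbers of the groups share only N3. At these depths 1 read is 0.0201 to 0.0275 FPKM in a gene of 2 kilobases, and with 3 against 2 libraries no exact test can go below p = 0.1.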
